A study of Mus musculus with 5 samples.

Results

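The genes described here encode the Rab GTPases, SNARE proteins, synaptotagmins and exocyst subunits that move, tether and fuse membrane vesicles. They were chosen by name: every gene of the expression table whose symbol begins with Rab, Stx, Stxbp, Vamp, Syt, Sytl, Exoc or Snap followed by a digit. The rule found 99 of 12293 genes, of which 52 have Rab names, 14 are syntaxins (Stx), 6 are syntaxin-binding proteins (Stxbp), 5 are Vamp genes, 5 are synaptotagmins (Syt), 4 are synaptotagmin-like genes (Sytl), 10 have Exoc names and 3 have Snap names. Relatives such as Sytl2, Snap25, Rab3a, Rab3b and Rab3c were not analysed here.

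RNA was measured in 5 libraries of about 50 sorted mouse mammary epithelial cells each. All came from adult virgin mice whose ovaries had been removed and which had carried hormone pellets for 14 days, and all cells were lineage-negative and CD24-positive. The luminal-derived basal cells (LdBC) were CD29hi and GFP-positive (2 libraries), basal cells were CD29hi and TdTomato-positive (2 libraries), and luminal cells were CD29low and GFP-positive (1 library). The labels name neither the alleles that carry GFP and TdTomato, nor a promoter that drives them, nor the hormones in the pellets, and they do not state that replicate libraries are from different animals. P-values thus cover the spread among these libraries alone, which may be technical.

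A Rab GTPase is a switch: bound to GTP it sits on 1 kind of membrane and recruits effectors, and exchange factors and GTPase-activating proteins turn it on and off. SNAREs on a vesicle (Vamp) and on its target membrane (Stx, Snap) zip together and fuse the membranes, Stxbp proteins of the Munc18 family bind and assist the syntaxins, and the exocyst tethers secretory vesicles to the plasma membrane before fusion. Luminal cells of the mammary gland face the duct with an apical surface to which they deliver membrane proteins and, in lactation, milk, while basal cells lie on the basement membrane and contract. Rab11a, Rab25, Rab17 and Rab8a act on the routes of recycling and apical delivery in polarized epithelial cells, and Stx3 and Stxbp2 act in fusion at the apical membrane.

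The values are FPKM, fragments normalized to transcript length and library size, so levels are per length, and the number of fragments behind each is unknown. Libraries still differed in scale. The log2 factor of median-of-ratios scaling was 0.14 and 0.22 in LdBC, -0.18 and -0.24 in basal libraries and 0.59 in luminal cells. Levels and sums below are not scaled by it, so gaps between libraries include this difference. The 99 genes made up 0.454% and 0.481% of all FPKM in LdBC, 0.413% and 0.412% in basal libraries and 0.454% in luminal cells. In these pooled cells, fewer cells of a type and less RNA per cell cannot be told apart. The genes above 0 numbered 9201 and 10627 in LdBC, 10979 and 10834 in basal libraries and 8041 in luminal cells. Of the 99 trafficking genes, 21 and 8 were listed at 0 in LdBC, 11 and 8 in basal libraries and 37 in luminal cells, where a 0 can be a failed estimate: 162 genes were listed at 0 there that had 10 FPKM or more in each of the other 4 libraries, among them the trafficking genes Stxbp2 and Exoc5. The labelled cell types were checked against 10 luminal markers, whose summed level was 30609 and 28689 FPKM in LdBC, 1220 and 949 in basal libraries and 25744 in luminal cells. Krt8 and Krt18 were the largest parts of the LdBC and luminal sums, and single markers did not all follow them. Prlr had 7.41 and 68.6 FPKM in LdBC and 743 FPKM in luminal cells. Cd14 had 1106 and 896 FPKM in LdBC and 93.3 FPKM in luminal cells. For 10 basal markers the sums were 1691 and 2991 in LdBC, 13714 and 11665 in basal libraries and 20.7 in luminal cells, where 8 of the 10 were listed at 0. In LdBC replicate 1, 3 basal markers (Krt15, Trp63 and Oxtr) were listed at 0. Of 4 fibroblast markers in the table the sums were 29.5 and 67.1 FPKM in LdBC, 279 and 273 in basal libraries and 305 in luminal cells. Nearly all of this was Dcn, at 26.8 and 67.0 FPKM in LdBC, 275 and 268 FPKM in basal libraries and 305 FPKM in luminal cells, while Col1a2, Col3a1 and Pdgfra were each under 3 FPKM in every library. Of 4 endothelial markers the sums were 3.88 and 0.535 FPKM in LdBC, 142 and 0.0169 in basal libraries and 0.0493 in luminal cells. The 2 immune markers summed to 9.14 and 6.10 in LdBC, 13.1 and 0 in basal libraries and 0 in luminal cells. The 2 neuron and Schwann cell markers, of which Sox10 is also expressed by mammary epithelium, summed to 37.0 and 37.4 in LdBC, 22.7 and 29.7 in basal libraries and 0.352 in luminal cells. The part of these cells in the results below was not tested.

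Promoters are shown for 3 genes that stood on different sides of the comparison of LdBC with basal cells: Rab25 and Rab23, higher in both LdBC libraries, and Stx7, lower in both. Each is the 250 bases before the RefSeq start of the gene on GRCm38.p6 (the assembly of mm10), read 5′ to 3′ on the gene's strand: chr3:88548280-88548529, minus strand, for Rab25, chr1:33719646-33719895, plus strand, for Rab23 and chr10:24149039-24149288, plus strand, for Stx7. Capitals mark matches, on either strand, to 3 motifs of epithelial and mesenchymal regulators: a Grainyhead-type site (AACNNGTT), a Slug-type E-box (CAGGTG, or CACCTG on the other strand) and an ETS-type site (AGGAAG, or CTTCCT on the other strand).
Rab25: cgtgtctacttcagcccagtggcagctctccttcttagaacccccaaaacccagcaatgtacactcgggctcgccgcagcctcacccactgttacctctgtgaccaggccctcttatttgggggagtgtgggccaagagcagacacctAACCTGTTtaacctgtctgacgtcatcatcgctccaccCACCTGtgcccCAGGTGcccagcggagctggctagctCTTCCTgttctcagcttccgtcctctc
Rab23: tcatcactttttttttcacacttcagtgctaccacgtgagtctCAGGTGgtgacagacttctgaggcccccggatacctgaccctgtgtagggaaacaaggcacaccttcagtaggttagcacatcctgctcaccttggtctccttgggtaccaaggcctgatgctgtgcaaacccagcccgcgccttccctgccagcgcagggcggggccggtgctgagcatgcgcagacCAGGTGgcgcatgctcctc
Stx7: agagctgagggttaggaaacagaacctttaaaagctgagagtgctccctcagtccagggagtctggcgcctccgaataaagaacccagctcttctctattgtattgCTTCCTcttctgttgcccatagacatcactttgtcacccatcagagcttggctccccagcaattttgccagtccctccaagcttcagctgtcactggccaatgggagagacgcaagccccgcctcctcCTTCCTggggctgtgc
The Rab25 window holds 1 Grainyhead-type match, 2 E-boxes and 1 ETS-type match, the Rab23 window 2 E-boxes, and the Stx7 window 2 ETS-type matches. Of the 99 genes, 83 have a promoter in the RefSeq table. The Grainyhead-type letters stand in 2 of these 83 (2.41%), against 3.63% of all 27025 promoters of the same length, the E-box in 14 (16.9%, against 17.1%) and the ETS-type letters in 20 (24.1%, against 29.2%). These matches are runs of letters and not shown binding sites.

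The comparison of LdBC with basal cells sets 2 populations of the same CD29hi gate, with different reporters, against each other. The recycling Rabs Rab17 and Rab25 and the Rab11 effector Rab11fip1 had the widest differences toward LdBC, of 4.85, 4.26 and 4.16 on the scale of log2(FPKM + 1). The abundant Rab1, Vamp8 and Rab11a and the less abundant Stx3 and Stxbp2 were also higher in each LdBC library than in either basal one. Stx7 and Rab2b were lower in each. None of these differences passed the threshold over all genes. Of the 99 genes, 89 had a mean FPKM of 1 or more and were tested, and limma with Benjamini-Hochberg adjustment called 0 of them, against 0.00941% of all 10626 tested genes, which is 1 gene. At an unadjusted p under 0.05, limma gave 16 trafficking genes as higher (18.0%, against 12.9% of all genes) and 3 as lower (3.37%, against 7.12%). These counts depend on the scaling: they were 10 and 4 under median-of-ratios scaling and 9 and 3 under quantile normalization. Over all genes and both directions the limma counts at that threshold were 2127 as reported, 1931 under median-of-ratios scaling and 1876 under quantile normalization. The 2 LdBC libraries exceeded the 2 basal ones in 33 of the 89 (37.1%, against 30.5% of all genes) and lay under them in 11 (12.4%, against 18.6%), and the groups overlapped in 45.

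The comparison was also read as a separation of 2-fold, where the lowest library of the higher group is at least 2 times the highest of the other on FPKM + 1, a description with no test. In LdBC, 8 of the 89 genes were separated as higher (8.99%, against 9.19% of all genes): Rab25, Rab17, Rab11fip1, Rab23, Rab7l1, Rab1, Rab3gap2 and Stxbp2. There were 2 separated as lower (2.25%, against 6.95%), Rab2b and Rab39b. The median log2(FPKM + 1) difference, LdBC minus basal, was 0.51 over the 89 genes and 0.20 over all genes. Under median-of-ratios scaling these medians were 0.19 and -0.09, and 5 of the 8 genes stayed separated (Rab25, Rab17, Rab11fip1, Rab23 and Rab7l1). The median of the 89 genes was 0.12 without LdBC replicate 2, and the separated genes then numbered 17 higher and 7 lower. Leaving out any 1 LdBC or basal library gave 13 to 20 higher and 4 to 7 lower. Every difference below is one of log2(FPKM + 1), a scale on which low genes look less changed than they are.

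**Figure D1:**
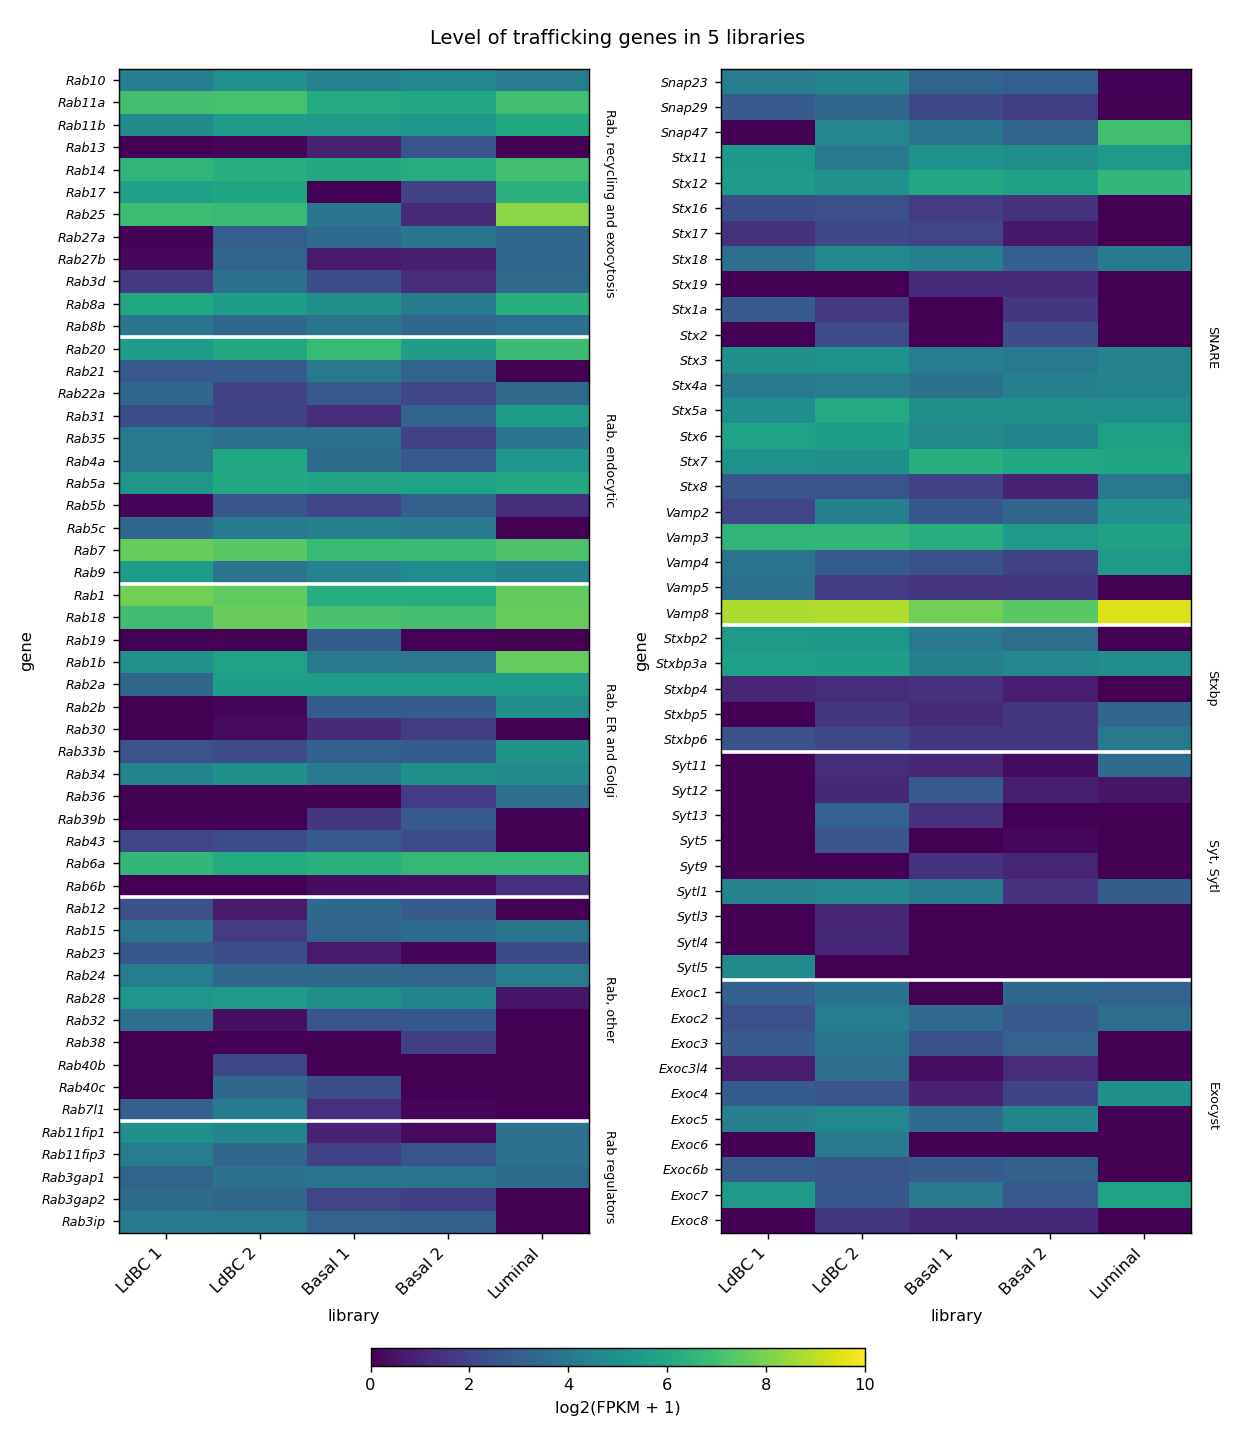
Level of the trafficking genes as log2(FPKM + 1), with 1 row per gene, ordered by role, and 1 column per library in the order LdBC, basal and luminal. Bright cells are high and dark cells low: Rab25 and Rab17 are brighter in the LdBC and luminal columns than in the basal ones, and Vamp8 is bright in all 5.

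Among the Rabs of recycling and exocytosis, Rab25, an epithelial member of the Rab11 family on the apical recycling endosome (chromosome 3, 88542029 to 88548300, minus strand), had 119 and 105 FPKM in LdBC, 14.2 and 1.28 FPKM in basal cells and 304 FPKM in luminal cells. The luminal library was highest, both LdBC libraries stood between, and the basal libraries differed widely from each other. The difference between LdBC and basal cells was 4.26 (SE 1.04, limma, Benjamini-Hochberg adjusted p = 0.161). Rab17, an epithelial Rab of the same recycling route (chromosome 1, 90958133 to 90969661, minus strand), had 52.4 and 59.7 FPKM in LdBC, 0 and 2.89 FPKM in basal cells and 82.7 FPKM in luminal cells, a difference between LdBC and basal cells of 4.85 (SE 0.79, limma, Benjamini-Hochberg adjusted p = 0.123). Rab11a, found in most cells, had 131 and 135 FPKM in LdBC, 68.4 and 61.3 FPKM in basal cells and 125 FPKM in luminal cells. On FPKM without scaling between libraries, the LdBC libraries of Rab11a stood beside the luminal one and above both basal ones. The luminal library has the largest scale factor, so its place beside LdBC depends on the scaling. Its close relative Rab11b had 26.1 and 43.8 FPKM in LdBC, 40.2 and 38.3 FPKM in basal cells and 66.9 FPKM in luminal cells, so LdBC and basal cells overlapped. Rab8a, which carries vesicles to the apical membrane, had 62.3 and 46.5 FPKM in LdBC, 30.3 and 15.8 FPKM in basal cells and 76.0 FPKM in luminal cells. Rab14, of the endosome and trans-Golgi routes, had 93.1 and 78.5 FPKM in LdBC, 66.5 and 72.8 FPKM in basal cells and 123 FPKM in luminal cells. For Rab14 the gap between the groups was small, with a difference of 0.29. The secretory granule Rabs did not follow one pattern. Rab27a had 0.0439 and 6.87 FPKM in LdBC, both under the 10.4 and 14.4 of basal cells, and 9.19 FPKM in luminal cells. Rab27b had 0.161 and 8.45 FPKM in LdBC, 0.647 and 0.826 FPKM in basal cells and 8.89 FPKM in luminal cells, and Rab3d, of exocrine granules, had 2.15 and 12.0 FPKM in LdBC, 4.08 and 1.41 FPKM in basal cells and 9.88 FPKM in luminal cells. For Rab27b and Rab3d the LdBC libraries lay far apart and overlapped the basal ones. The trans-Golgi and basolateral Rab10 and the Rab8a paralog Rab8b also overlapped, with Rab10 at 18.9 and 32.7 FPKM in LdBC and 20.9 and 24.6 FPKM in basal cells, and Rab8b at 14.1 and 9.29 FPKM in LdBC and 13.6 and 8.98 FPKM in basal cells. Rab13, of tight junction traffic, was barely present, with 0 and 0.139 FPKM in LdBC and 0.914 and 5.47 FPKM in basal cells, and was listed at 0 in the luminal library. Summed over the 12 genes of this role, the level was 518 and 538 FPKM in LdBC, 270 and 248 FPKM in basal cells and 835 FPKM in luminal cells. This sum is not scaled between libraries, so its gaps include their difference in scale.

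Among the regulators and effectors that carry a Rab name, 4 of 5 were higher in both LdBC libraries than in both basal ones and 1 lower (30.5% and 18.6% of all genes). Rab11fip1, an effector that links Rab11 and Rab25 to recycling vesicles (chromosome 8, 27138773 to 27174646, minus strand), had 30.4 and 23.1 FPKM in LdBC, 0.975 and 0.201 FPKM in basal cells and 11.6 FPKM in luminal cells. Both LdBC libraries thus exceeded the luminal one as well as the basal ones. Its difference between LdBC and basal cells was 4.16 (SE 0.52, limma, Benjamini-Hochberg adjusted p = 0.123). Rab11fip3, another Rab11 effector, had 17.9 and 8.80 FPKM in LdBC, 2.87 and 5.30 FPKM in basal cells and 12.8 FPKM in luminal cells. Rab3gap2, a subunit of the Rab3 GTPase-activating complex, had 10.6 and 9.19 FPKM in LdBC and 3.28 and 2.56 FPKM in basal cells, while its partner subunit Rab3gap1 had 8.01 and 12.7 FPKM in LdBC and 13.6 and 13.8 FPKM in basal cells. Rab3gap2 thus stood above basal levels. Rab3gap1 lay only narrowly below them, with a difference of -0.40 (SE 0.41) and a gap narrower than the spread between the LdBC libraries. Rab3ip (Rabin8), the exchange factor that activates Rab8, had 16.6 and 15.0 FPKM in LdBC and 7.75 and 7.08 FPKM in basal cells. Rab3gap2 and Rab3ip were listed at 0 in the luminal library.

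**Figure D2:**
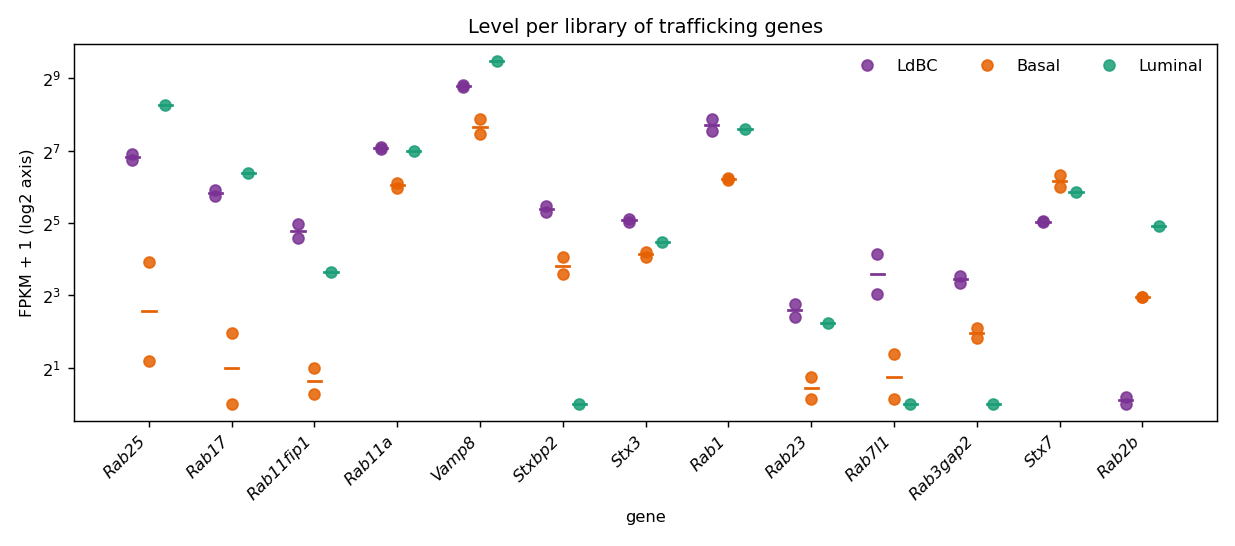
FPKM + 1 of 13 trafficking genes on a log2 axis, with 1 point per library, a bar at the mean of the log values of a group, and the groups in the order LdBC, basal and luminal. The LdBC points of Rab25 and Rab17 lie between the basal and luminal points, and those of Stx7 lie under both.

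On the endocytic route, Rab7, the Rab of late endosomes and lysosomes, had 205 and 173 FPKM in LdBC, 108 and 111 FPKM in basal cells and 148 FPKM in luminal cells. Rab4a, of fast recycling from early endosomes, had 15.9 and 62.3 FPKM in LdBC, 10.4 and 5.98 FPKM in basal cells and 36.9 FPKM in luminal cells. Both genes were higher in each LdBC library than in either basal library, with differences of 0.78 and 1.87. Rab21, of early endosomes and integrin traffic, had 5.85 and 6.04 FPKM in LdBC and 15.4 and 8.59 FPKM in basal cells and was listed at 0 in the luminal library. The early endosome gene Rab5a had 38.6 and 66.2 FPKM in LdBC, 56.7 and 54.4 FPKM in basal cells and 64.1 FPKM in luminal cells, and Rab20 had 44.6 and 66.6 FPKM in LdBC, 106 and 47.6 FPKM in basal cells and 116 FPKM in luminal cells. For these last genes LdBC and basal cells overlapped, as they did in 7 of the 11 endocytic Rabs. Of the 11, 3 lay above basal cells and 1 below (30.5% and 18.6% of all genes), and their median difference was -0.08 (0.20 over all genes). Rab35, of endocytic recycling, lay just above basal levels, with 15.1 and 11.9 FPKM in LdBC, 11.8 and 2.93 FPKM in basal cells and 14.1 FPKM in luminal cells. Rab9, of transport from endosomes to the Golgi, overlapped, with 44.5 and 13.5 FPKM in LdBC, 20.7 and 28.3 FPKM in basal cells and 20.3 FPKM in luminal cells, as did Rab22a and Rab5b, which were under 11 FPKM in every library.

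Rabs of the endoplasmic reticulum and Golgi stood on both sides of basal levels. Rab1, which carries traffic from the endoplasmic reticulum to the Golgi, had 233 and 186 FPKM in LdBC, 74.4 and 72.3 FPKM in basal cells and 193 FPKM in luminal cells, a difference between LdBC and basal cells of 1.49 (SE 0.20, limma, Benjamini-Hochberg adjusted p = 0.123). Its paralog Rab1b had 31.9 and 54.1 FPKM in LdBC, 15.5 and 14.4 FPKM in basal cells and 197 FPKM in luminal cells. Rab1 in LdBC lay on both sides of the luminal value, while Rab1b in LdBC lay far under it. Rab2b (chromosome 14, 52261759 to 52279545, minus strand), a Golgi Rab, had 0 and 0.141 FPKM in LdBC, 6.79 and 6.69 FPKM in basal cells and 29.3 FPKM in luminal cells, a difference between LdBC and basal cells of -2.86 (SE 0.46, limma, Benjamini-Hochberg adjusted p = 0.123). The LdBC libraries were thus the lowest of the 5 for Rab2b. Rab2b overlaps the coding gene Tox4 on the other strand, and the library is not described as stranded. Its paralog Rab2a had 9.30 and 45.9 FPKM in LdBC, 47.3 and 43.5 FPKM in basal cells and 44.2 FPKM in luminal cells, with LdBC replicate 1 below the rest. Rab39b was listed at 0 in both LdBC libraries and in the luminal library and had 1.98 and 5.87 FPKM in basal cells. Rab33b, a Golgi Rab, had 4.83 and 3.97 FPKM in LdBC, 7.41 and 6.49 FPKM in basal cells and 35.1 FPKM in luminal cells. Rab18, of lipid droplets and the endoplasmic reticulum, and Rab6a, of the Golgi, were abundant and overlapped between LdBC and basal cells, at 121 and 208 FPKM in LdBC and 139 and 131 FPKM in basal cells for Rab18, and at 96.8 and 69.9 FPKM in LdBC and 79.5 and 100.2 FPKM in basal cells for Rab6a. Rab34 had 21.6 and 31.6 FPKM in LdBC and 16.5 and 30.8 FPKM in basal cells. Rab36 was highest in the luminal library, at 11.7 FPKM, with 0.0502 and 0 FPKM in LdBC and 0 and 2.46 FPKM in basal cells.

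Of the remaining Rabs, Rab23, a brake on Hedgehog signalling (chromosome 1, 33719887 to 33742564, plus strand), had 5.72 and 4.32 FPKM in LdBC, 0.658 and 0.0888 FPKM in basal cells and 3.68 FPKM in luminal cells, a difference between LdBC and basal cells of 2.15 (SE 0.50, limma, Benjamini-Hochberg adjusted p = 0.155). Rab7l1 (Rab29 in current naming) had 7.22 and 16.5 FPKM in LdBC and 1.60 and 0.0920 FPKM in basal cells, and was listed at 0 in the luminal library. Rab12 had 4.37 and 0.666 FPKM in LdBC and 9.34 and 6.31 FPKM in basal cells, and was also listed at 0 in the luminal library. Rab23 and Rab7l1 lay above basal levels and Rab12 below them. Rab24, of autophagy, and Rab15, of endosomes, overlapped, with Rab24 at 18.1 and 9.06 FPKM in LdBC and 9.22 and 8.27 FPKM in basal cells and Rab15 at 12.9 and 2.30 FPKM in LdBC and 8.06 and 10.1 FPKM in basal cells. Rab32 had 11.5 and 0.325 FPKM in LdBC, around the 5.30 and 5.82 of basal cells.

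**Figure D3:**
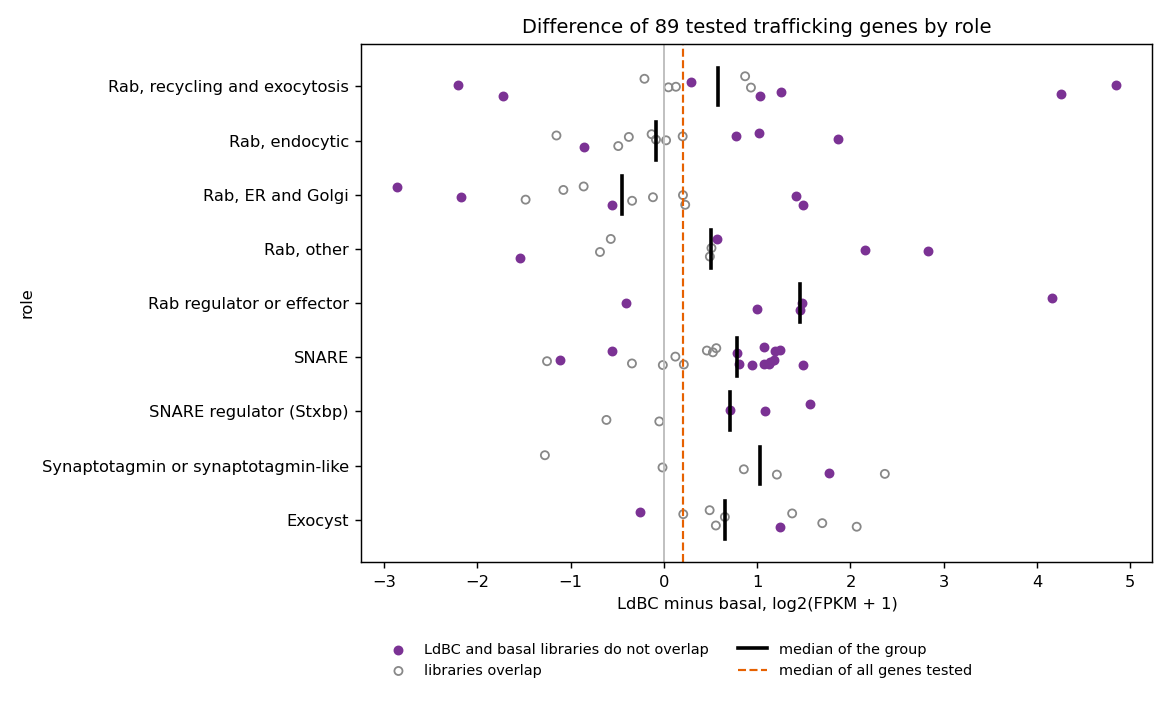
Difference in log2(FPKM + 1), LdBC minus basal, of the 89 tested genes by role, with 1 point per gene (filled where the LdBC and basal libraries do not overlap), a black line at the median of the role and a dashed line at the median of all tested genes, 0.20. The medians of the roles run from -0.45 for Rabs of the endoplasmic reticulum and Golgi to 1.46 for Rab regulators and effectors.

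Among the SNAREs, 11 of 21 tested genes had both LdBC libraries above both basal ones and 2 had both below (30.5% and 18.6% of all genes). Vamp8, an endosomal and secretory granule SNARE (chromosome 6, 72385223 to 72390703, minus strand), was the most abundant of the 99 genes in each of the 5 libraries, with 432 and 448 FPKM in LdBC, 233 and 174 FPKM in basal cells and 709 FPKM in luminal cells. Both LdBC libraries lay between basal and luminal cells, and the difference between LdBC and basal cells was 1.12 (SE 0.21, limma, Benjamini-Hochberg adjusted p = 0.128). The apical syntaxin Stx3 (chromosome 19, 11775118 to 11819403, minus strand) had 31.7 and 33.6 FPKM in LdBC, 17.5 and 15.6 FPKM in basal cells and 21.4 FPKM in luminal cells. The basolateral syntaxin Stx4a had 16.1 and 18.0 FPKM in LdBC, 12.3 and 19.5 FPKM in basal cells and 21.2 FPKM in luminal cells. Stx3 in LdBC thus stood above all other libraries, with a difference from basal cells of 0.94, while Stx4a overlapped, with a difference of 0.12. Stx6, of the trans-Golgi network, had 54.9 and 47.8 FPKM in LdBC, 26.1 and 21.8 FPKM in basal cells and 50.1 FPKM in luminal cells, and Vamp3, of recycling endosomes, had 92.4 and 97.7 FPKM in LdBC, 73.2 and 41.1 FPKM in basal cells and 52.4 FPKM in luminal cells. Snap23, the plasma membrane partner of the syntaxins outside neurons, had 17.3 and 21.6 FPKM in LdBC, 8.30 and 6.87 FPKM in basal cells and 0.0757 FPKM in luminal cells. These 3 genes were all higher in each LdBC library than in either basal library. The SNAREs on the other side were endosomal. Stx7, of late endosomes (chromosome 10, 24149302 to 24190222, plus strand), had 32.2 and 31.5 FPKM in LdBC, 78.7 and 62.1 FPKM in basal cells and 57.4 FPKM in luminal cells, with LdBC the lowest of the 3 groups and a difference from basal cells of -1.11 (SE 0.24, limma, Benjamini-Hochberg adjusted p = 0.144). Stx12, of recycling and early endosomes, had 44.6 and 32.5 FPKM in LdBC, 61.6 and 51.8 FPKM in basal cells and 96.6 FPKM in luminal cells. Stx8, which works with Stx7 in late endosome fusion, had 5.14 and 5.05 FPKM in LdBC, 2.80 and 1.00 FPKM in basal cells and 15.2 FPKM in luminal cells, so the partners Stx7 and Stx8 lay on opposite sides of basal levels. Stx5a, of traffic into the Golgi, had 29.3 and 68.3 FPKM in LdBC, 31.8 and 29.9 FPKM in basal cells and 28.7 FPKM in luminal cells, and Stx11, an endosomal syntaxin, had 39.4 and 15.3 FPKM in LdBC, 33.3 and 29.9 FPKM in basal cells and 42.2 FPKM in luminal cells. Both overlapped. Snap29, of autophagosome and endosome fusion, had 6.25 and 9.28 FPKM in LdBC and 3.59 and 2.65 FPKM in basal cells, and Stx16, of the trans-Golgi network, had 4.27 and 4.40 FPKM in LdBC and 2.45 and 1.72 FPKM in basal cells. Snap29 and Stx16 were higher in both LdBC libraries, and the luminal library was listed at 0 for both.

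Of the syntaxin-binding proteins, Stxbp2 (Munc18-2, the partner of Stx3; chromosome 8, 3630955 to 3643644, plus strand) had 43.2 and 38.2 FPKM in LdBC and 15.6 and 10.9 FPKM in basal cells, and was listed at 0 in the luminal library. Its difference between LdBC and basal cells was 1.56 (SE 0.39, limma, Benjamini-Hochberg adjusted p = 0.163). Stxbp3a, the widely expressed Munc18 partner of Stx4a, had 48.5 and 47.1 FPKM in LdBC, 19.7 and 24.4 FPKM in basal cells and 28.6 FPKM in luminal cells. Stxbp6, which binds SNAREs and the exocyst, had 4.57 and 3.41 FPKM in LdBC, 2.10 and 1.96 FPKM in basal cells and 14.6 FPKM in luminal cells.

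Synaptotagmins, some of which couple vesicle fusion to calcium, and synaptotagmin-like proteins, which bind Rab27, were mostly low. Sytl1, a Rab27 effector, had 20.9 and 24.6 FPKM in LdBC, 17.1 and 1.67 FPKM in basal cells and 6.83 FPKM in luminal cells. Sytl5 had 25.7 FPKM in LdBC replicate 1 and was listed at 0 in the other 4 libraries. The 5 synaptotagmins reached at most 10.3 FPKM, the level of Syt11 in the luminal library.

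Of 9 tested exocyst genes, 1 had both LdBC libraries above both basal ones and 1 below (30.5% and 18.6% of all genes), and 7 overlapped. The higher one, Exoc4 (Sec8), had 6.53 and 5.17 FPKM in LdBC, 1.01 and 3.10 FPKM in basal cells and 31.2 FPKM in luminal cells. Exoc6b, on the other side, had 5.98 and 5.22 FPKM in LdBC and 6.27 and 7.56 FPKM in basal cells, a gap narrower than the spread within either group. Exoc7 (Exo70), which binds the plasma membrane, had 41.5 and 5.65 FPKM in LdBC, 15.0 and 6.13 FPKM in basal cells and 55.0 FPKM in luminal cells. Exoc6 had 16.5 FPKM in LdBC replicate 2 and was listed at 0 in the other 4 libraries. Exoc7 and Exoc6 differed more between the LdBC libraries than between the groups. Of the other subunits, Exoc5 (Sec10) had 19.5 and 24.5 FPKM in LdBC and 10.4 and 22.2 FPKM in basal cells, and Exoc3 (Sec6) had 6.25 and 13.6 FPKM in LdBC and 4.56 and 7.78 FPKM in basal cells. Both overlapped between LdBC and basal cells and were listed at 0 in the luminal library. Exoc1 (Sec3) had 7.47 and 12.6 FPKM in LdBC, 0.0403 and 9.5 FPKM in basal cells and 7.74 FPKM in luminal cells, and Exoc2 (Sec5) had 4.49 and 17.2 FPKM in LdBC, 9.68 and 6.0 FPKM in basal cells and 11.3 FPKM in luminal cells. Exoc3l4, a relative of Exoc3, had 0.759 and 10.9 FPKM in LdBC and 0.288 and 1.41 FPKM in basal cells. Summed over the 10 Exoc genes, the level was 92.5 and 113 FPKM in LdBC, 48.5 and 64.9 FPKM in basal cells and 105 FPKM in luminal cells. This sum is not scaled between libraries, so its gaps include their difference in scale.

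Shares within sets of close paralogs do not depend on how a library was scaled and are given as descriptions. In the Rab11 family, Rab25 made up 43.1% and 37.0% of the summed FPKM of Rab11a, Rab11b and Rab25 in LdBC, 11.6% and 1.27% in basal libraries and 61.3% in luminal cells. Rab11b made up 9.48% and 15.4% in LdBC, 32.8% and 38.0% in basal libraries and 13.5% in luminal cells. The set was thus led by Rab11a and Rab25 in LdBC, by Rab11a and Rab11b in basal cells and by Rab25 in the luminal library. Rab1 made up 87.9% and 77.5% of the sum of Rab1 and Rab1b in LdBC and 82.8% and 83.4% in basal libraries, with overlap, but 49.4% in the luminal library. Rab8a took 65.4% and 52.5% of its set (with Rab8b, Rab10 and Rab13) in LdBC, 46.1% and 28.9% in basal libraries and 72.4% in luminal cells, and Vamp8 took 81.9% and 79.3% of its set (with Vamp2 and Vamp3) in LdBC, 74.7% and 77.7% in basal libraries and 89.3% in luminal cells. For both sets the LdBC shares lay between the basal and luminal ones. In other sets they lay outside that range: Stx3 took 66.3% and 60.4% of its set (with Stx2 and Stx4a) in LdBC, 58.7% and 39.8% in basal libraries and 50.2% in luminal cells. Snap23 took 73.5% and 39.6% of its set (with Snap29 and Snap47) in LdBC, 32.1% and 38.4% in basal libraries and 0.0606% in luminal cells. Its LdBC replicate 1 share goes with a Snap47 listed at 0 in that library, against 23.7 FPKM in LdBC replicate 2. The LdBC replicate 2 share lay only just above the basal ones. For Rab27b against Rab27a the LdBC shares were 78.6% and 55.2%, the basal ones 5.88% and 5.43% and the luminal one 49.2%, but the LdBC replicate 1 share rests on a sum of 0.205 FPKM.

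**Figure D4:**
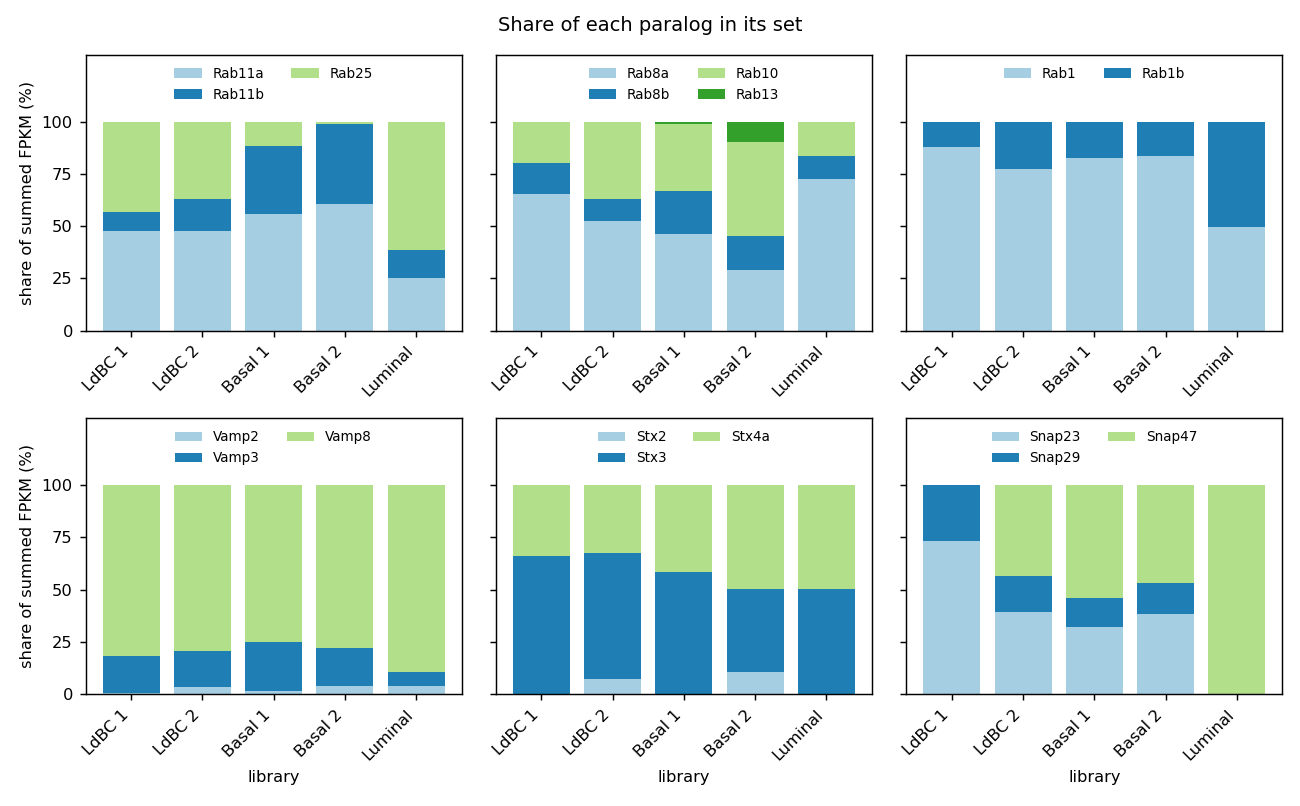
Share of each gene in the summed FPKM of its paralog set, in percent, as 1 stacked bar per library in the order LdBC, basal and luminal, for 6 sets. Rab25 fills 43.1% and 37.0% of the bars of its set in LdBC, 11.6% and 1.27% in basal libraries and 61.3% in luminal cells.

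LdBC and luminal cells share the GFP reporter and differ in the CD29 gate. Stxbp2, Rab28 and Snap23 were higher in LdBC and Rab2b lower, and these 4 calls are 4.49% of the 89 tested genes, against 4.01% of all genes. All 4 stood on the same side of the luminal library in basal cells. There Stxbp2 had 15.6 and 10.9 FPKM, Rab28 30.1 and 22.0, Snap23 8.30 and 6.87 and Rab2b 6.79 and 6.69. Rab28, a Rab of cilia and photoreceptors, had 36.8 and 40.7 FPKM in LdBC and 0.513 FPKM in luminal cells (difference 4.71, SE 0.42, limma, Benjamini-Hochberg adjusted p = 0.0440). Snap23 had 17.3 and 21.6 FPKM in LdBC and 0.0757 FPKM in luminal cells (4.24, SE 0.53, adjusted p = 0.0499 by the same test), and Rab2b had 0 and 0.141 FPKM in LdBC and 29.3 FPKM in luminal cells (-4.83, SE 0.57, adjusted p = 0.0498). Stxbp2 was called at an adjusted p of 0.0440 in limma, with no difference given because the luminal library was listed at 0. These calls rest on 1 luminal library, assumed to vary like the others, and no trafficking gene was called without LdBC replicate 1 or without LdBC replicate 2. Without the filter on low values none of the 4 was called, Snap23 was also lost at pseudocount 5, and Snap23 and Rab2b were lost under median-of-ratios scaling and under quantile normalization.

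In 31 of the 89 genes the LdBC libraries exceeded the luminal one (34.8%, against 35% of all genes), and in 30 they lay under it (33.7%, against 41.7%). In LdBC, 19 were separated 2-fold as higher (21.3%, against 21.4% of all genes) and 14 as lower (15.7%, against 22.6%). In 16 of the 19 the luminal library was listed at 0, and the other 3 were Rab28, Snap23 and Sytl1 (3.37%, against 9.32% of all genes separated with the luminal library above 0). Of these 3, Rab28 and Snap23 had luminal levels near 0, at 0.513 and 0.0757 FPKM. Without LdBC replicate 2, 24 were separated as lower. Genes with a luminal level far above LdBC included Rab1b, with 31.9 and 54.1 FPKM in LdBC and 197 FPKM in luminal cells, Rab31 (an endosomal Rab), with 4.30 and 3.05 FPKM in LdBC and 45.6 FPKM in luminal cells, and Exoc4, with 6.53 and 5.17 FPKM in LdBC and 31.2 FPKM in luminal cells. Snap47, a SNARE relative of Snap25, had 0 and 23.7 FPKM in LdBC and 125 FPKM in luminal cells. Vamp4, of the trans-Golgi network, had 13.5 and 6.76 FPKM in LdBC and 41.8 FPKM in luminal cells. For Rab25 the gap was smaller, with 119 and 105 FPKM in LdBC and 304 FPKM in luminal cells. The median difference was 0.03 over the 89 genes and 0.01 over all genes, and -0.41 over the members above 0 in both groups. It was 0.35 under median-of-ratios scaling and 0.31 under quantile normalization, and 0.19 without LdBC replicate 1.

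The third comparison sets basal against luminal cells, and it shares its libraries with the first 2, so the comparisons are not independent. In basal cells Rab5c, Rab28 and Stxbp2 were higher, and Rab1b and Vamp8 lower, which makes 5 calls (5.62%, against 8.31% of all genes). In LdBC all 5 lay on the same side of the luminal library. Rab28 had 30.1 and 22.0 FPKM in basal cells and 0.513 FPKM in luminal cells (difference 4.15, SE 0.42, limma, Benjamini-Hochberg adjusted p = 0.0349). Rab1b had 15.5 and 14.4 FPKM in basal cells and 197 FPKM in luminal cells (-3.64, SE 0.44, adjusted p = 0.0404 by the same test), and Vamp8 had 233 and 174 FPKM in basal cells and 709 FPKM in luminal cells (-1.81, SE 0.25, adjusted p = 0.0457). Rab5c, an early endosome Rab, had 19.7 and 16.8 FPKM in basal cells and Stxbp2 had 15.6 and 10.9, and both were listed at 0 in the luminal library (limma, Benjamini-Hochberg adjusted p = 0.0458 and 0.0420). Without Basal replicate 1 or without Basal replicate 2 none of the 5 was called. Vamp8 was also lost without the filter, without trend, under median-of-ratios scaling and under quantile normalization, Rab1b without trend and under median-of-ratios scaling, Rab5c without the filter and at pseudocount 5, and Stxbp2 at pseudocount 5. The largest gaps among genes above 0 in both groups did not pass: Rab25 had a difference of -5.70 (SE 1.27, limma, Benjamini-Hochberg adjusted p = 0.0708) and Rab17 one of -5.41 (SE 0.97, adjusted p = 0.0561 by the same test). The basal libraries exceeded the luminal one in 30 of the 89 genes (33.7%, against 39.8% of all genes) and lay under it in 43 (48.3%, against 48.5%). In basal cells, 18 were separated 2-fold as higher (20.2%, against 27.7%) and 25 as lower (28.1%, against 31.9%). Of the 18, 2 had the luminal library above 0 (2.25%, against 9.95%). These were Rab28 and Snap23, with luminal levels near 0, at 0.513 and 0.0757 FPKM. The median difference was -0.21 over the 89 genes and -0.13 over all genes, and 0.37 and 0.24 over the 89 under median-of-ratios scaling and after quantile normalization, so its sign depends on the scaling.

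Replicate libraries differed by 4-fold or more on FPKM + 1 in 17 of the 89 genes in LdBC (19.1%, against 21.6% of all genes) and in 6 in basal cells (6.74%, against 5.03%). Among these, 13 of the 17 in LdBC were higher in replicate 2 (76.5%, against 1535 of 2299 or 66.8% over all genes), among them Rab27a, Rab27b, Rab3d, Vamp2, Snap47 and Exoc6. Vamp2, a SNARE of regulated secretion, had 3.28 and 19.2 FPKM, and Snap47 had 0 and 23.7. Exoc7 and Sytl5 were higher in replicate 1. In basal cells the 6 included Rab25, at 14.2 and 1.28 FPKM, and Sytl1, at 17.1 and 1.67. Basal replicate 1, with the higher values of both, was the library with 142 FPKM of endothelial markers. Its luminal markers also summed to more than those of basal replicate 2, at 1220 and 949 FPKM. Among them Cldn7 had 12.5 and 0.699 FPKM and Krt19 had 19.8 and 5.25 FPKM, and no luminal marker was higher in basal replicate 2. The part of endothelial or luminal cells was not tested.

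Of genes outside the naming rule in the same machinery, 19 other SNAREs and fusion factors of 21 listed were tested. Limma with Benjamini-Hochberg adjustment called 0 in LdBC against basal cells (6 higher and 0 lower at an unadjusted p under 0.05, against 12.9% and 7.12% of all genes). In 12 both LdBC libraries lay above both basal ones and in 1 below (30.5% and 18.6% of all genes), and the median difference was 1.01 (0.20 over all genes). The endosomal SNARE Vti1b had 73.6 and 55.2 FPKM in LdBC and 24.5 and 17.7 FPKM in basal cells, and the Golgi SNARE Gosr2 had 28.1 and 38.0 FPKM in LdBC and 12.8 and 9.97 FPKM in basal cells. Sec22a had 23.8 and 9.61 FPKM in LdBC and 1.96 and 1.36 FPKM in basal cells. All 3 were separated by 2-fold or more. Of 6 tested genes of Rab prenylation and recycling, 4 were above and 0 below, with 0 called by limma (2 higher and 0 lower unadjusted). Of 28 tested exchange factors, GTPase-activating proteins and effectors, 5 were above and 8 below with 0 called by limma (2 higher and 0 lower unadjusted), and the median difference was -0.05. The shares of all genes given for the other SNAREs apply to these counts too. Against the 1 luminal library, 15 of the 28 were separated 2-fold as lower in LdBC (22.6% of all genes) and 5 as higher (21.4%). In 4 of those 5 the luminal library was listed at 0, and the median difference was -1.45. In basal against luminal cells 12 were separated as lower (31.9% of all genes) and 5 as higher (27.7%).

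Genes of apical sorting and polarity had the highest median of the 4 lists: of 19 tested, 14 had both LdBC libraries above both basal ones and 1 below (30.5% and 18.6% of all genes), and 9 were separated 2-fold as higher (9.19% of all genes). No gene of this list passed limma with Benjamini-Hochberg adjustment, 0 of 19 (12 higher and 0 lower at an unadjusted p under 0.05, against 12.9% and 7.12% of all genes), and the median difference was 1.36 (0.20 over all genes). The apical mucin Muc1 had 49.9 and 128 FPKM in LdBC, 3.04 and 0 FPKM in basal cells and 74.4 FPKM in luminal cells. The apical scaffold Slc9a3r1 had 81.6 and 78.0 FPKM in LdBC, 1.56 and 2.09 FPKM in basal cells and 119 FPKM in luminal cells, and the polarity gene Crb3 had 115 and 78.5 FPKM in LdBC, 3.81 and 1.90 FPKM in basal cells and 233 FPKM in luminal cells. LdBC lay far above basal cells in all 3 genes. Against luminal cells, 5 of the 19 lay above in LdBC and 10 below (35% and 41.7% of all genes). There, 3 were separated 2-fold as higher and 4 as lower (21.4% and 22.6% of all genes), and the median difference was -0.57. The polarity gene Pard6b had 20.9 and 15.0 FPKM in LdBC and was listed at 0 in the luminal library. The polarity gene Pard3 went the other way, with 4.95 and 5.57 FPKM in LdBC, 7.89 and 9.82 FPKM in basal cells and 22.5 FPKM in luminal cells. Of these lists limma with Benjamini-Hochberg adjustment called 1 gene of 72 tested in LdBC against luminal cells (4.01% of all genes were called), the exocytosis factor Unc13d, which was listed at 0 in both LdBC libraries and had 24.5 FPKM in the luminal library (adjusted p = 0.0440). In basal against luminal cells, 7 of the 72 were called (9.72%, against 8.31% of all genes). The SNARE Bnip1 was higher and listed at 0 in the luminal library, and the other 6 were lower, among them Crb3 (difference -5.97, adjusted p = 0.0349) and Slc9a3r1 (-5.42, adjusted p = 0.0349), by limma with Benjamini-Hochberg adjustment.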

How the data were processed

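About 50 sorted cells per library were amplified with a modified Smart-seq2 protocol, per the labels' protocols. Per the submitters' processing notes, the build was mm10 and the tools were Cuffdiff 2.0.2, Cufflinks 2.0.2 and TopHat2 2.0.4; no source used here gives the annotation. The authors deposited log2(FPKM + 1) per gene and library, and FPKM was recovered from these log2 values. Of 12311 rows, 18 whose gene names had become dates were left out. No gene with a highest FPKM of 1 or less is in the table.

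All 5 libraries entered 1 limma 3.58.1 fit with an intensity trend on log2(FPKM + 1), pseudocount 1, with 1 mean per group, over the 10626 genes whose FPKM averaged at least 1. There were 2 residual degrees of freedom, to which limma's prior added 1.65. Two-sided p-values were adjusted by Benjamini-Hochberg over all tested genes, with calls at an adjusted p under 0.05. Where all libraries of a group are listed at 0, the text gives no difference.

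The 10 trafficking genes under the filter were Exoc8, Rab30, Rab6b, Rab38, Rab40b, Stx19, Stxbp4, Syt9, Sytl3 and Sytl4. Of the 99, 97 matched a current or older symbol with a position in GENCODE M21 (GRCm38). In that annotation 4 overlap a coding gene on the same strand and 13 on the other, and the libraries are not described as stranded. Of the genes described, values of Rab4a, Vamp3 and Exoc2 (same strand) and of Rab2b, Rab3gap2, Rab5a, Rab6a, Rab15, Rab24, Exoc5, Stx4a, Snap29 and Snap47 (other strand) are uncertain to that extent. No source used here says how fragments were divided between close paralogs. The genes and lists were chosen with earlier results of these data known. Named genes are, per comparison, every called gene, the 12 non-overlapping genes with the largest difference in each direction (mean of the higher group at least 5 FPKM), the members of paralog sets, and the 10 of highest mean level. A few genes outside this rule are named because their values bear on a statement, and were chosen after their values were seen. Alternatives were pseudocounts of 0.1 and 5, no filter and a mean FPKM of 5 or more, limma without trend, median-of-ratios scaling, quantile normalization, each library left out, and the replicate number as a block. The values of a few genes that entered the counts are not reported here.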

Additional observations from a re-analysis of the deposited data

How the results depend on the processing

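Depth is unknown, so no limit on low values can be given, and the luminal library listed 37 trafficking genes at 0. In LdBC against basal cells no trafficking gene was called under any alternative. The genes called over the whole table, 1 as reported, numbered 0 at pseudocount 0.1, without trend, under median-of-ratios scaling, without the luminal library and without each LdBC or basal library, 2 at a mean FPKM of at least 5 and 4 under quantile normalization. With the filter set on the mean of the other 4 libraries, an alternative added after seeing the data, 56 genes and 0 trafficking genes were called without the luminal library. The separated genes, 8 higher and 2 lower as reported, were 5 and 1 at pseudocount 5, 5 higher under median-of-ratios scaling, 4 lower without the filter, 1 lower at a mean FPKM of at least 5, and 13 to 20 higher and 4 to 7 lower without each library. Fewer libraries have to be apart there. The median difference was 0.39 at pseudocount 5, 0.19 under median-of-ratios scaling, 0.15 under quantile normalization and 0.12 to 0.66 without each library.

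In LdBC against luminal cells the genes called (426) and trafficking genes called (4) were 1175 and 13 at pseudocount 0.1, 4 and 0 without the filter, 788 and 7 at a mean FPKM of at least 5, 258 and 2 under median-of-ratios scaling, and 0 and 0 without either LdBC library. Without trend 647 genes were called, and under quantile normalization 2 trafficking genes. The median difference was -0.21 at a mean FPKM of at least 5, 0.35 under median-of-ratios scaling, 0.31 under quantile normalization, and 0 to 0.19 without each LdBC library. Between 18 and 24 genes were separated as lower without each LdBC library. In basal against luminal cells the genes called (883) and trafficking genes called (5) were 1826 and 15 at pseudocount 0.1, 488 and 3 without the filter, 1621 and 15 at a mean FPKM of at least 5, 570 and 3 under median-of-ratios scaling, and 0 and 0 without either basal library. The separated higher genes were 11 at pseudocount 5 and 11 at a mean FPKM of at least 5. The median difference was -0.066 without the filter, -0.50 at a mean FPKM of at least 5, 0.37 under median-of-ratios scaling and 0.24 under quantile normalization. The causes were not tested.

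The LdBC share minus the basal share was 42.0 percentage points for Rab27b (61.2 as reported), 0.20 for Rab6a (0.31), -0.78 for Rab32 (15.8) and -3.25 for Sytl1 (-31.7) on FPKM + 1, and for Rab6a 0.29 to 0.32 without each library. Over the single genes and settings, 528 values kept their side of the threshold, 36 calls were lost and 10 gained. Most of these genes were not called as reported, so keeping their side mostly means staying uncalled. None changed sign, but the genes were picked as called or as not overlapping between groups, so a change of sign was hardly possible. Whether same-numbered LdBC and basal libraries belong together is not known. Deviations of same-numbered libraries from their group means correlated at 0.0115 over 10626 genes. That cannot decide the question, since replicate libraries of so few cells differ widely. With the replicate block, limma called 0 genes and 0 trafficking genes in LdBC against basal cells (1710 genes, 13 trafficking genes higher and 3 lower at an unadjusted p under 0.05).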

Other observations

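2 rows of the table join a microRNA with a trafficking gene and fall outside the naming rule. The row of Mir3101 and Rab4b had 7.47 and 28.5 FPKM in LdBC, 20.9 and 21.9 FPKM in basal cells and 88.3 FPKM in luminal cells. The row of Mir705 and Rab11fip5 had 23.2 and 6.38 FPKM in LdBC, 15.0 and 11.8 FPKM in basal cells and 10.8 FPKM in luminal cells. In both rows the LdBC libraries differed more from each other than the basal libraries did.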
